A study of Mus musculus with 12 samples.

Results

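The IFIT family was followed through RNA sequencing of natural killer (NK) cells sorted from mouse lymph nodes. Its members were taken by symbol: Ifit1, Ifit1bl1, Ifit2, Ifit3 and Ifit3b, 5 of the 56748 gene IDs in each count file. All 5 passed the filter on low counts. The 12 libraries fell into 3 groups of 4: nodes of the hematogenous model, in which diffuse large B cell lymphoma had spread through blood vessels, nodes of the lymphatic model, in which it had spread through lymphatic vessels, and nodes of tumor free C57BL/6J mice. The labels give NK cells of lymph node for all 3 groups. The sources used here do not give how the lymphoma was introduced, the time allowed for spread, the age and sex of the mice, the sorting markers or any pooling of nodes. Replicates carry the numbers 1 to 4 with no word on whether each was its own animal, and p-values therefore measure a spread between libraries that may be technical.

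IFIT genes, named for interferon-induced proteins with tetratricopeptide repeats, are among the genes that rise most in cells exposed to type I interferon. Receptor signalling activates transcription factors that bind the interferon-stimulated response element in their promoters. The proteins lack enzymatic activity. IFIT1 binds RNA whose 5′ cap lacks the methyl marks of host mRNA and blocks its translation, IFIT2 and IFIT3 bind partner IFITs and modify that activity, and IFIT subunits also contact the translation factor eIF3. In the mouse, Ifit1bl1 and Ifit3b are additional copies of the Ifit1 and Ifit3 types, and their products have been studied less.

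The members stand together on chromosome 19. In the RefSeq order of protein-coding genes the cluster runs Ifit2, Ifit3, Ifit1bl1, Ifit3b, Ifit1bl2 and Ifit1. Lipa and Slc16a12 flank it. The promoter stretches below are shown because they hold the letters through which interferon signalling is known to reach this family, and because 2 of them are the same. They come from RefSeq windows of build GRCm38.p6, which reach from 250 bases before to 50 bases after a gene's start, and all 5 members had a window. Capitals mark the core of the response element, GAAA, any 2 bases and GAAA again, which these stretches carry on the opposite strand.
Ifit1 (chr19:34640773-34640825, plus strand): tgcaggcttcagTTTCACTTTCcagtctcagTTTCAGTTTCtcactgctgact
Ifit3 (chr19:34583361-34583428, plus strand): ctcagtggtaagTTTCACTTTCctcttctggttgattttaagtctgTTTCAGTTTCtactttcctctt
Ifit3b (chr19:34607757-34607824, plus strand): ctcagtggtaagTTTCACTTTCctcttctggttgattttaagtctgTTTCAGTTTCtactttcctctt
Ifit1bl1 (chr19:34602051-34602084, minus strand): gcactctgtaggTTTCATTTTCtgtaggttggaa

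Searched on both strands, this core was found in the windows of 4 of the 5 members and in 3.44% of 32851 windows over all genes (3.99% of 27025 genes). The longer form that ends in GAAACT, which contains the core, was found in Ifit1, Ifit3 and Ifit3b and in 0.271% of all windows (0.303% of genes). The matches began 104 and 85 bases upstream of the start of Ifit1, 156 and 122 bases upstream of Ifit3, 188 and 154 bases upstream of Ifit3b, and 104 and 23 bases upstream of separate starts of Ifit1bl1, of which the first is printed. Ifit3 and Ifit3b were identical over the printed stretch, 68 of 68 bases. The windows of Ifit2 did not hold the core and held TTCNNNGAA, the letters of the gamma-activated site, which stood in 8.3% of all windows (9.55% of genes) and in no other member's window. The pair of Ifit1 matches also lies in the window of Ifit1bl2, which is read in the opposite direction from a start 146 bases away. These matches describe the letters in the windows and are not evidence of binding.

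Gene counts per library ranged from 10087837 to 19625766 in the hematogenous, from 17672832 to 43494812 in the lymphatic and from 6654215 to 23674960 in the tumor free group. Of all reads, 55.4% to 65.5% were assigned to genes in hematogenous libraries, 67.1% to 72.1% in lymphatic libraries and 65.7% to 70.7% in tumor free libraries, and hematogenous replicate 1 was the lowest. Summed over 12 NK cell markers, levels were 7757 to 9701 CPM (counts scaled to library size) in hematogenous, 10799 to 12689 in lymphatic and 11904 to 13983 in tumor free libraries, with no marker at 0 in any group. Tumor free replicates 1, 2 and 4, with 6654215 to 8355021 gene counts, had reads on 14168 to 14850 genes. Tumor free replicate 3, with 23674960 gene counts, had reads on 22161.

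In NK cells of lymphatic-model nodes all 5 IFIT genes were higher than in tumor free nodes, by 2.83-fold for Ifit2 to 9.37-fold for Ifit3. In hematogenous-model nodes the increase over tumor free was smaller and passed the test for Ifit1bl1, Ifit2 and Ifit3, by 1.41-fold for Ifit2 to 3.03-fold for Ifit3. Set against the lymphatic model, all 5 were lower in the hematogenous model without overlap, as were 11.3% of all genes. By the test 4 of the 5 were called lower, against 5.92% of all genes. Summed over the family, the level was 147, 274, 164 and 318 CPM in hematogenous replicates 1 to 4, 484, 506, 675 and 573 CPM in the lymphatic libraries and 123, 98.8, 109 and 133 CPM in the tumor free libraries. The 3 groups did not overlap in this sum. As these are bulk libraries, fewer cells carrying a transcript and less RNA per cell cannot be told apart.

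**Figure D1:**
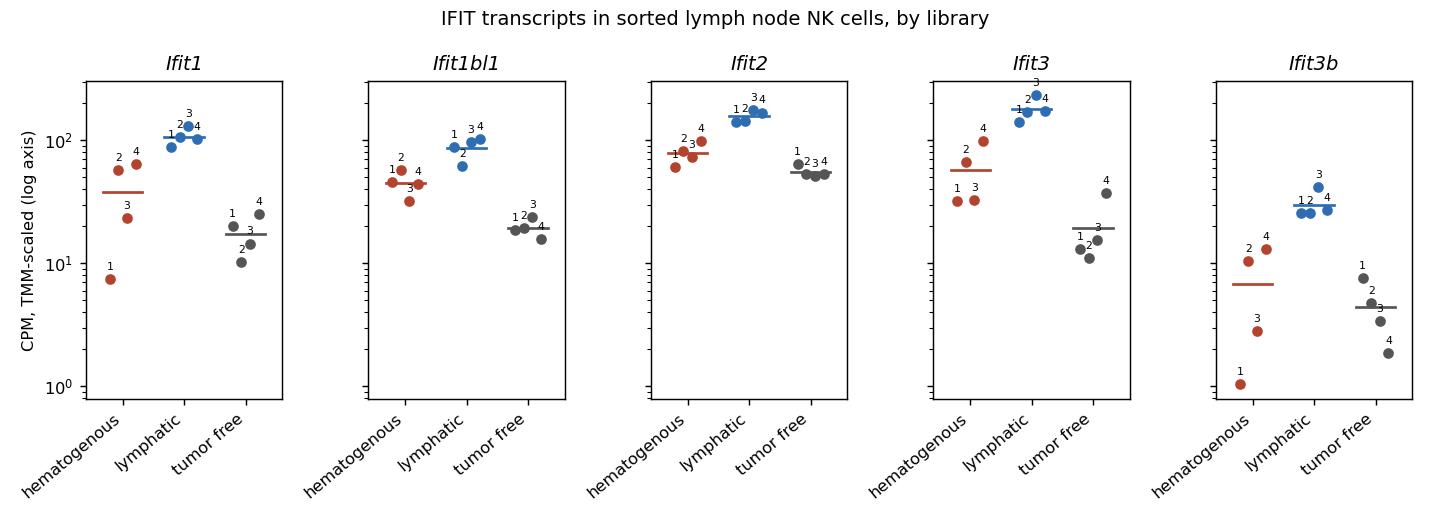
Each panel plots 1 IFIT gene, with TMM-scaled CPM on a log axis, the libraries as points labelled with their replicate number, and group means as bars. All 5 genes are highest in the 4 lymphatic libraries, and hematogenous libraries spread from 7.47 to 63.9 CPM for Ifit1 but from 32.3 to 57.1 CPM for Ifit1bl1.

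Ifit1 encodes the cap sensor of the family. It stood at 7.47, 57.5, 23.2 and 63.9 CPM in hematogenous replicates 1 to 4, at 88.4, 106, 130 and 102 CPM in the lymphatic libraries and at 20.1, 10.2, 14.5 and 25.0 CPM in the tumor free libraries. Every lymphatic library lay above every other one, while the lowest Ifit1 level of all 12 was that of hematogenous replicate 1, where it rested on 79 reads. Against tumor free, the lymphatic model was higher for Ifit1, at 2.62 on the log2 scale (SE 0.52, edgeR adjusted p = 0.0164). That call was lost without tumor free replicate 1 or 2 or lymphatic replicate 2 or 4, with the highest edgeR adjusted p at 0.0875, and with no filter on low counts (edgeR adjusted p = 0.0827). For hematogenous nodes against tumor free the value was 1.13 (SE 0.505, edgeR adjusted p = 0.155), and the 95% interval of the fold ran from 1.03 to 4.69. Without hematogenous replicate 1 it was 1.47 and passed (edgeR adjusted p = 0.00337).

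Ifit1bl1, a neighbouring copy of the Ifit1 type, had the tightest set of hematogenous values apart from Ifit2. It stood at 45.8, 57.1, 32.3 and 44.1 CPM in hematogenous replicates 1 to 4, at 87.7, 61.4, 96.4 and 103 CPM in the lymphatic libraries and at 18.6, 19.4, 23.9 and 15.7 CPM in the tumor free libraries. It was the one member whose 3 groups were separate from each other throughout, with every hematogenous library between the tumor free and the lymphatic ones. The log2 fold change was 2.16 for the lymphatic model against tumor free (SE 0.206, edgeR adjusted p = 4e-06). For the hematogenous model against tumor free it was 1.20 (SE 0.203, edgeR adjusted p = 0.000675). Between the models, hematogenous minus lymphatic, it was −0.96 (SE 0.196, edgeR adjusted p = 0.0053).

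Ifit2 encodes a partner of the other IFIT proteins. Its level was 61.1, 81.5, 72.9 and 98.3 CPM in hematogenous replicates 1 to 4, 141, 144, 176 and 168 CPM in the lymphatic libraries and 64.1, 53.6, 51.5 and 53.1 CPM in the tumor free libraries. The lymphatic libraries stood apart from all others, whereas hematogenous replicate 1 lay below tumor free replicate 1. Ifit2 had the smallest fold changes of the family against tumor free, and also the smallest spread. The log2 fold change was 1.503 in the lymphatic model (SE 0.15, edgeR adjusted p = 6.43e-06). The hematogenous value was 0.50 (SE 0.148, edgeR adjusted p = 0.0258), a call that ended when any 1 of 6 libraries was left out (tumor free 2, 3 or 4, lymphatic 4, hematogenous 2 or 4; highest edgeR adjusted p = 0.108).

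Ifit3 is named like human IFIT3, which stabilizes human IFIT1 on its target RNA, a role not examined here for the mouse gene. Mouse Ifit3 stood at 32, 67.1, 32.7 and 98.5 CPM in hematogenous replicates 1 to 4. It was at 141, 169, 232 and 172 CPM in the lymphatic libraries and at 13.0, 10.9, 15.3 and 37.6 CPM in the tumor free libraries. The lymphatic libraries were again above all others, and tumor free replicate 4 lay above hematogenous replicates 1 and 3. The log2 fold change against tumor free was 3.23 in the lymphatic model (SE 0.445, edgeR adjusted p = 0.00148). The hematogenous value was 1.60 (SE 0.427, edgeR adjusted p = 0.0227). The hematogenous call was lost without tumor free replicate 1 or 2 (edgeR adjusted p = 0.0656 and 0.0738) and with no filter on low counts (edgeR adjusted p = 0.0883).

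Ifit3b is the second gene of the Ifit3 type and the member with the fewest reads. It stood at 1.04, 10.4, 2.79 and 13.1 CPM in hematogenous replicates 1 to 4, at 25.8, 25.5, 41.4 and 27.3 CPM in the lymphatic libraries and at 7.6, 4.73, 3.41 and 1.87 CPM in the tumor free libraries. The lymphatic libraries were above all others, the hematogenous and tumor free libraries overlapped, and the lowest of them, hematogenous replicate 1, held 11 reads. Against tumor free, the log2 fold change was 2.77 in the lymphatic model (SE 0.56, edgeR adjusted p = 0.00831), lost without tumor free replicate 2 or 4 (edgeR adjusted p = 0.0606 and 0.0523). The hematogenous value was 0.65 (SE 0.543, edgeR adjusted p = 0.469), with a 95% interval of the fold from 0.714 to 3.45.

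Across all 16016 genes tested, edgeR called 2.32% higher in the lymphatic model than in tumor free nodes, and 2.74% in either direction. The IFIT count was 5 higher of 5, each with no overlap between the groups, which 7.66% of all genes shared in this direction. The median log2 fold change was 2.62 over the members and 0.08 over all genes. Of all calls 84.7% were higher, and 73.2% with scaling by library size alone. Against the same tumor free nodes, 9.52% of genes were called higher in the hematogenous model and 16.4% in either direction. Beside this stand 3 of 5 IFIT members, of which Ifit1bl1 alone had no overlap (11.5% of all genes were higher without overlap), with a median of 1.13 over the members and 0.08 over all genes. Without tumor free replicate 2 the members called were 3 in the lymphatic and 1 in the hematogenous model. Both sets of fold changes use the same 4 tumor free libraries.

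Set directly against the lymphatic model, the hematogenous libraries were lower for all 5 IFIT genes, with no overlap between the groups. Over all genes tested 11.3% were lower without overlap. By the test, 4 of 5 were lower, against 5.92% of all genes and 8.85% in either direction, and 2 of 5 without lymphatic replicate 2 or without hematogenous replicate 3. Ifit2 differed by −1.004 on the log2 scale (SE 0.147, edgeR adjusted p = 0.000525), the smallest adjusted p of the family here. Ifit3b had the largest difference, −2.12 (SE 0.535, edgeR adjusted p = 0.018), and was lost without lymphatic replicate 2 or hematogenous replicate 3 (edgeR adjusted p = 0.0543 and 0.0757). For Ifit3 the value was −1.63 (SE 0.41, edgeR adjusted p = 0.0276), lost without any 1 of 6 libraries (lymphatic 2, 3 or 4, hematogenous 1, 2 or 3; highest edgeR adjusted p = 0.0956) and with no filter on low counts (edgeR adjusted p = 0.121). Ifit1 was not called, at −1.48 (SE 0.49, edgeR adjusted p = 0.0864). It was called without hematogenous replicate 1 (−1.11, edgeR adjusted p = 0.0338) or 4 (−1.80, edgeR adjusted p = 0.0431). The median was −1.48 over the members and −0.006 over all genes. Of all calls 33.1% were higher with TMM scaling and 55.8% with library size alone, which moved the median of all genes by 0.106, while the members' median relative to it was −1.48 with TMM and −1.49 with library size alone.

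**Figure D2:**
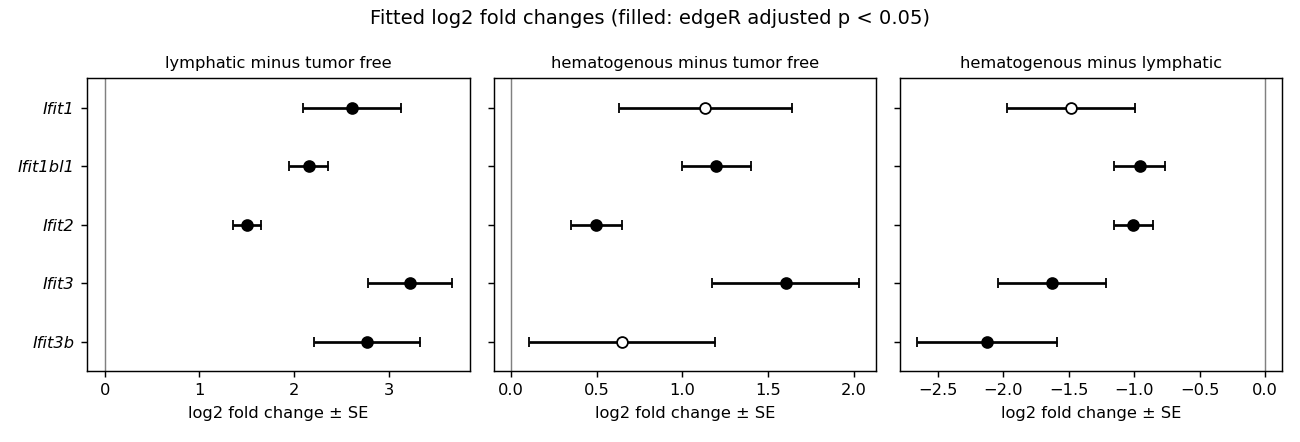
The 3 panels plot the fitted log2 fold change of each IFIT gene with its SE for the lymphatic model minus tumor free, the hematogenous model minus tumor free and the hematogenous minus the lymphatic model. Filled points passed an edgeR adjusted p of 0.05, which are 5, 3 and 4 of the 5 genes, and the horizontal scale differs between panels.

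Per kilobase of exon, which allows levels to be set between genes, Ifit3 led the family in both lymphoma models. It averaged 33.0 ± 18.2 CPM per kb in the hematogenous, 102 ± 21.9 in the lymphatic and 11.0 ± 7.09 in the tumor free libraries (SD, n = 4 each). In the lymphatic model Ifit1 at 40.2, Ifit2 at 40.1 and Ifit1bl1 at 38.5 CPM per kb followed, 3 neighbours whose libraries overlapped, while the ranges of Ifit3 above them and Ifit3b below them, at 15.004, did not meet theirs. In the hematogenous model the order was Ifit3, Ifit2 at 19.97, Ifit1bl1 at 19.8, Ifit1 at 14.3 and Ifit3b at 3.42 CPM per kb, and each neighbouring pair overlapped. Tumor free libraries had Ifit2 first at 14.1, then Ifit3, Ifit1bl1 at 8.58, Ifit1 at 6.57 and Ifit3b at 2.20 CPM per kb, and the neighbours overlapped except for Ifit1 and Ifit3b. Ifit3b was the lowest member in all 12 libraries. Of the 120-base stretches of Ifit3, 24.8% also occur in Ifit3b, and 21.5% of those of Ifit3b occur in Ifit3. Reads from them cannot be assigned, so the levels of both genes per kilobase may be too low. Ifit2 shares no such stretch, so its place above Ifit3 in tumor free libraries is uncertain.

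The make-up of the family's transcripts is given as a description. Ifit3 made up 34.9% ± 5.58 of the family's signal per kilobase in hematogenous, 43.1% ± 2.92 in lymphatic and 24.6% ± 11.2 in tumor free libraries (SD, n = 4 each). Ifit2 made up 23.7% ± 5.75 in hematogenous, 17.1% ± 1.15 in lymphatic and 34.0% ± 6.03 in tumor free libraries. By reads without regard to length, the mean share of Ifit2 was 36.6% in hematogenous, 28.3% in lymphatic and 48.3% in tumor free libraries. That of Ifit3 was 24.3% in hematogenous, 31.7% in lymphatic and 15.97% in tumor free libraries. By these means Ifit2 stood above Ifit3 in the hematogenous group, although in hematogenous replicate 4 they were level, at 30.92% for Ifit2 and 30.99% for Ifit3. These shares sum to a fixed total, so they are not independent of each other, and they were not tested. Those of Ifit3 and Ifit3b may be too low because of the sequence they share.

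The hematogenous libraries differed among themselves, and more for some members than for others. The highest library had 12.6 times the level of the lowest for Ifit3b, 8.55 times for Ifit1 and 3.07 times for Ifit3, but 1.76 times for Ifit1bl1 and 1.61 times for Ifit2. In lymphatic libraries these ratios ran from 1.24 for Ifit2 to 1.68 for Ifit1bl1. Hematogenous replicates 2 and 4 were high and replicates 1 and 3 low for Ifit1, Ifit2, Ifit3 and Ifit3b. Ifit1bl1 did not follow this order, since its second highest hematogenous library was replicate 1. After subtracting the group means, Pearson's r over the 12 libraries was 0.055 to 0.322 for the 4 pairs with Ifit1bl1 and 0.35 to 0.866 for the 6 other pairs. These values are descriptions over libraries that share their depth and scaling. Hematogenous replicate 1 also had the lowest share of reads assigned to genes (55.4%) and the most unaligned reads (14.6%), and its part in the spread was not tested.

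Between genes of similar sequence the balance of reads varied by library. Ifit3b took 3.14%, 13.4%, 7.86% and 11.8% of the reads of Ifit3 and Ifit3b in hematogenous replicates 1 to 4, 13.1% to 15.5% in the lymphatic libraries and 36.9%, 30.2%, 18.2% and 4.74% in tumor free replicates 1 to 4. Exact Clopper-Pearson 95% intervals reached from 1.58% to 5.55% in hematogenous replicate 1 and from 29.8% to 44.5% in tumor free replicate 1, and cover counting error only. The share spanned a wider range in tumor free than in lymphatic libraries, and within both groups some libraries' intervals did not overlap. Ifit1bl1 took 86.0% (interval 82.9% to 88.8%), 49.8%, 58.2% and 40.8% of the reads of Ifit1 and Ifit1bl1 in hematogenous replicates 1 to 4, 36.7% to 50.1% in lymphatic and 38.5% to 65.5% in tumor free libraries.

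**Figure D3:**
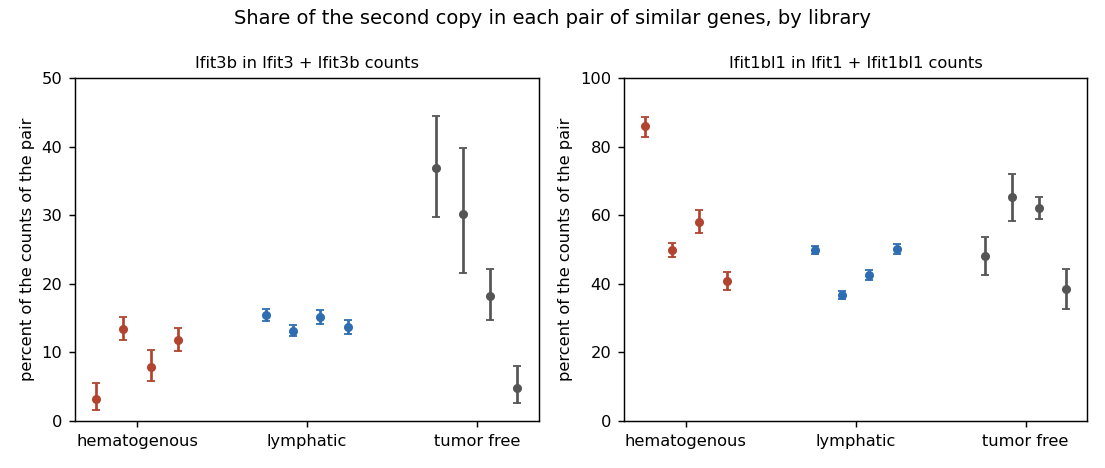
The left panel plots Ifit3b as a percent of the reads of Ifit3 and Ifit3b, and the right panel Ifit1bl1 as a percent of the reads of Ifit1 and Ifit1bl1, by library with exact 95% binomial intervals. The lymphatic libraries sit between 13.1% and 15.5% on the left, while hematogenous replicate 1 stands at 86.0% on the right. The vertical scales differ.

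Sequence shared between the copies bears on these values. Of all 120-base stretches of Ifit3 transcripts 24.8% also occur in Ifit3b, with a longest shared run of 329 bases, and of those of Ifit3b 21.5% occur in Ifit3. A read from such a stretch cannot be assigned to either copy, so the split between Ifit3 and Ifit3b is uncertain. Ifit1 and Ifit1bl1 shared no stretch of that length, and Ifit1 shared 2.4% of its own with Ifit1bl2. Copies were also added as one feature, which holds a copy called alone in each case. With Ifit3 and Ifit3b added, the hematogenous model exceeded tumor free by 1.46 on the log2 scale (edgeR adjusted p = 0.0223). With Ifit1, Ifit1bl1 and Ifit1bl2 added, it exceeded tumor free by 1.16 (edgeR adjusted p = 0.00126). Ifit1bl2 itself, the remaining gene of the cluster and no member here, stayed at 1.20 to 1.80 CPM in hematogenous, 1.69 to 4.15 in lymphatic and 0.148 to 2.01 in tumor free libraries and was not called (edgeR adjusted p of 0.553 to 0.788 over the 3 comparisons).

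Among the ligands that induce IFIT genes, those of type I and III interferon had few or no reads. Of 21 ligand genes listed 13 had no read in any library, and 7 of the others had at most 23 reads summed over all 12. Ifnb1, the gene of interferon-beta, had 2 reads, both in 1 lymphatic library. The exception was Ifng, the gene of interferon-gamma that NK cells secrete, at 59.8 ± 15.3 CPM in hematogenous, 190 ± 72.5 in lymphatic and 64.8 ± 17.8 in tumor free libraries (SD, n = 4 each). Its log2 fold change, hematogenous minus lymphatic, was −1.67 (SE 0.231, edgeR adjusted p = 0.000321).

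Interferon receptors and their signalling proteins lead to IFIT transcription. Of 11 such genes tested, 3 rose in the lymphatic model over tumor free, 2 rose in the hematogenous model and 2 fell in the hematogenous relative to the lymphatic model. Over all genes tested, the shares called in these directions were 2.32%, 9.52% and 5.92%. Stat2, which encodes a transcription factor of the type I interferon response, had a lymphatic minus tumor free value of 0.95 on the log2 scale (SE 0.181, edgeR adjusted p = 0.00441). For Irf9, the gene of a DNA-binding factor of the same response, that value was 0.77 (SE 0.186, edgeR adjusted p = 0.0283). Neither was called in the hematogenous model against tumor free (Stat2 0.42, edgeR adjusted p = 0.122). Irf9 stood there at 52.0, 93.0, 64.2 and 116 CPM in hematogenous replicates 1 to 4, against 109, 124, 98.9 and 105 CPM in tumor free replicates 1 to 4 (log2 fold change −0.43, SE 0.186, edgeR adjusted p = 0.128). Its groups overlapped through hematogenous replicate 4, and its fitted sign was opposite to that of the 3 IFIT genes called higher in the same comparison. The genes called in the hematogenous model were Jak2, a kinase of interferon receptors, at 0.55 and Ifngr1, a chain of the interferon-gamma receptor, at 1.06. Ifnar1 and Ifnar2, the chains of the type I receptor, were not called in any comparison (lowest edgeR adjusted p = 0.119).

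Of 17 genes for nucleic acid sensors and their adaptors, 5 rose in the lymphatic model over tumor free, 0 passed in the hematogenous model and 5 fell in the hematogenous relative to the lymphatic model. Over all genes, 2.32% were called higher in the lymphatic model. In the hematogenous model 9.52% were called higher and 16.4% in either direction, and 5.92% were called lower between the models. Irf7, a transcription factor that amplifies the interferon response, stood at 117 ± 54.9 CPM in hematogenous, 305 ± 92.8 in lymphatic and 101 ± 11.8 in tumor free libraries (SD, n = 4 each). Of 8 feedback genes, 2 rose in the lymphatic model, 2 rose and 1 fell in the hematogenous model, and 3 fell in the hematogenous relative to the lymphatic model (Usp18 −1.57, Ptpn6 −1.12 and Irf2 −0.51). Usp18, which holds back signalling at the type I receptor, was at 39.8, 69.6, 30.1 and 69.7 CPM in hematogenous replicates 1 to 4, at 130, 158, 189 and 144 CPM in lymphatic libraries and at 16.1, 11.4, 17.7 and 30.5 CPM in tumor free libraries. Hematogenous replicates 2 and 4 were thus its higher ones, as for 4 of the IFIT genes.

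Among 31 other antiviral effectors, 23 rose and none fell in the lymphatic model (median log2 fold change 1.58), 8 rose in the hematogenous model (median 0.63), and 18 fell in the hematogenous relative to the lymphatic model (median −1.14). Of all genes, 2.32% were called higher, 9.52% higher and 5.92% lower in these 3 comparisons. The IFIT medians were 2.62, 1.13 and −1.48. The 8 were Mx1, Oas1a, Oas2, Oasl2, Herc6, Xaf1, Trim25 and Zc3hav1. Isg15, a ubiquitin-like interferon product, was not called although its lymphatic libraries lay above all others. It had 0.567, 22.2, 6.34 and 28.8 CPM in hematogenous replicates 1 to 4, 46.9, 70.6, 71.5 and 49.9 CPM in lymphatic libraries and 17.2, 3.99, 7.11 and 17.8 CPM in tumor free libraries (lymphatic minus tumor free 2.38, SE 0.788, edgeR adjusted p = 0.174).

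**Figure D4:**
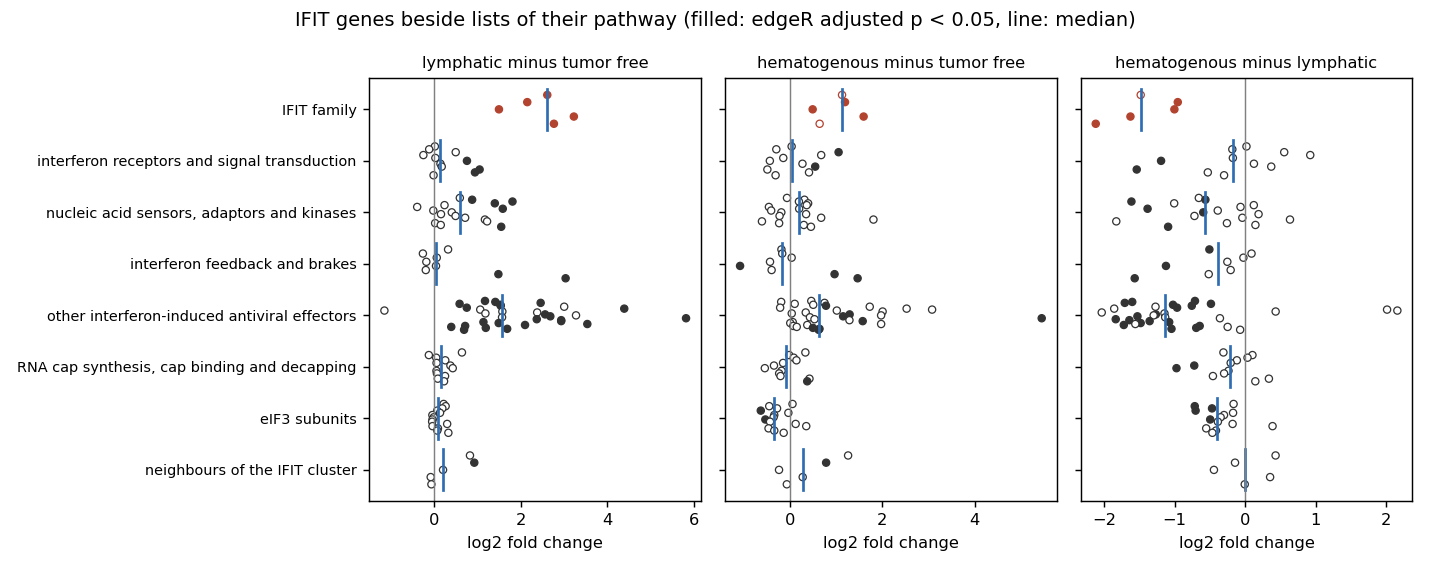
Each point is the fitted log2 fold change of 1 gene, with IFIT genes in the top row and 7 lists of their pathway beneath. Filled points passed an edgeR adjusted p of 0.05 and vertical lines mark medians, which for the IFIT family are 2.62, 1.13 and −1.48 in the 3 panels. The horizontal scale differs between panels.

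Next come genes of the machinery on which IFIT proteins act. Against tumor free, 2.74% of all genes were called in either direction in the lymphatic model and 16.4% in the hematogenous model. Between the models 8.85% were called in either direction and 5.92% lower. Among 12 genes for cap synthesis, cap binding and decapping, 0 passed in the lymphatic model against tumor free, the 5′ exonuclease gene Xrn1 rose in the hematogenous model (0.38, edgeR adjusted p = 0.0457), and the cap-binding Eif4e and its helicase partner Eif4a1 fell in the hematogenous relative to the lymphatic model (−0.97 and −0.72). None of 14 eIF3 subunit genes passed in the lymphatic model, 2 fell in the hematogenous model against tumor free (Eif3d and Eif3h), and 4 fell in the hematogenous relative to the lymphatic model (Eif3b −0.72, Eif3c −0.47, Eif3d −0.70 and Eif3h −0.50). The hematogenous counts against tumor free, 1 of 12 cap genes and 2 of 14 eIF3 genes, were not above the 16.4% of all genes called in either direction. The 2 eIF3 calls were lower, and 2 of 14 was above the share of all genes called lower there, 1100 of 16016. In that comparison the eIF3 genes had a median log2 fold change of −0.33, with 3 of 14 positive. Genes beside the cluster gave a local comparison. Of 5 tested neighbours only Kif20b, a mitotic kinesin gene, was called against tumor free, at 0.79 in the hematogenous and 0.94 in the lymphatic model. Lipa, the closest of the tested ones to Ifit2, was at 45.0 ± 7.53 CPM in hematogenous, 61.3 ± 3.62 in lymphatic and 52.8 ± 9.78 in tumor free libraries (SD, n = 4 each; lowest edgeR adjusted p = 0.1).

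By likeness, the 6 genes whose log2 CPM followed the mean of the 5 IFIT genes most closely over the 12 libraries were Ifi206 (r = 0.970), Mx1 (0.968), Gbp10 (0.967), Oas1a (0.967), Irgm1 (0.966) and Gbp6 (0.965). The libraries fall into 3 groups that set much of this likeness, and after subtracting group means r was 0.751 for Irgm1 to 0.853 for Mx1. Gbp10, a guanylate-binding protein gene, had 5.67, 13.8, 4.25 and 15.1 CPM in hematogenous replicates 1 to 4, 25.3, 28, 39.6 and 27.0 CPM in lymphatic and 3.62, 2.96, 2.47 and 2.01 CPM in tumor free libraries. Its hematogenous replicates 2 and 4 were the higher ones, which its choice by likeness favours.

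Sums over markers of other cells differed between the groups, and single genes made up much of several. Summed over 11 markers of group 2 and 3 innate lymphoid cells the level was 956 to 2039 CPM in hematogenous, 384 to 628 in lymphatic and 396 to 501 in tumor free libraries, with Il17a and Il13 at 0 in the hematogenous, Il22, Il17a and Areg in the lymphatic and Il23r, Il22, Il17a, Il5 and Il13 in the tumor free group. Il7r alone gave 758 to 1819 CPM of it in hematogenous, 190 to 374 in lymphatic and 257 to 303 in tumor free libraries, while Gata3 stood at 57.3 to 72.6 CPM in hematogenous, 63.5 to 73.5 in lymphatic and 74.6 to 96.4 in tumor free libraries. The 11 T cell markers summed to 551 to 736 CPM in hematogenous, 336 to 554 in lymphatic and 293 to 494 in tumor free libraries, and none was at 0. The 12 markers of macrophages, monocytes and neutrophils summed to 517 to 604 CPM in hematogenous, 422 to 527 in lymphatic and 380 to 529 in tumor free libraries, where Cd14 was at 0. Itgam gave 114 to 184 CPM of it in hematogenous, 145 to 167 in lymphatic and 124 to 147.5 in tumor free libraries. Ly6c2 gave 220 to 255 CPM in hematogenous, 179 to 210 in lymphatic and 158 to 260 in tumor free libraries. The 12 B cell markers, none at 0, summed to 398 to 577 CPM in hematogenous, 480 to 965 in lymphatic and 366 to 507 in tumor free libraries, and Ighm alone gave 290 to 381 CPM of it in hematogenous, 348 to 583 in lymphatic and 288 to 345 in tumor free libraries. The 12 dendritic cell markers, which include the interferon-induced Bst2, summed to 683 to 1112 CPM in hematogenous, 1248 to 1631 in lymphatic and 862 to 1017 in tumor free libraries, where Clec9a and Cd209a were at 0. Itgax alone gave 539 to 993 CPM of it in hematogenous, 1099 to 1469 in lymphatic and 757 to 929 in tumor free libraries. The 10 markers of stroma and endothelium summed to 117 to 140 CPM in hematogenous, 161 to 174 in lymphatic and 112 to 128 in tumor free libraries, with Pdgfra at 0 in all 3 groups. Nearly all of this was Pecam1, at 115 to 138 CPM in hematogenous, 160 to 174 in lymphatic and 112 to 125 in tumor free libraries. Of the 12 NK markers, 8 fell in the hematogenous model against tumor free, where 1100 of 16016 genes tested were called lower. In that comparison 7 of 11 tested markers of macrophages, monocytes and neutrophils were called higher and 0 lower. For T cells 4 of 11 were higher and 0 lower, and for innate lymphoid cells 4 of 6 tested were higher and 1 lower. Dendritic cell markers gave 2 of 8 tested higher, B cell markers 1 of 12 and stroma and endothelium 0 of 2. Of all genes 9.52% were called higher. The part of other cells in the IFIT levels was not tested.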

How the data were processed

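The deposited files, 1 per library, held raw counts of reads by gene. The authors used FastQC 0.11.9, Trimmomatic 0.39, HISAT2 2.1.0, HTSeq 2.0.2 and build GRCm39, per the submitters' processing notes. Libraries were poly(A)-selected, stranded and read as single ends of 120 bases, per the labels' protocols. The sources used here do not give the annotation release or the strand option. Reads where genes overlap may therefore have been left uncounted or counted for the wrong gene.

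Symbols came from GENCODE M21 and matched 52073 of 56748 gene IDs (91.8%), which held 99.5% of counts. The 5 summary lines per file were left out. edgeR 4.0.16 in R 4.3.3 was run on all 12 libraries with TMM scaling, filtering by group and robust quasi-likelihood estimation in a model of group alone, leaving 16016 genes. Calls were made at an adjusted p (Benjamini-Hochberg) under 0.05. CPM values are TMM-scaled, levels per kilobase use M21 exon lengths, and log2 CPM used a prior count of 2. Depth ran from 6654215 to 43494812 gene counts, and counting intervals cover counting error only. The fit was tested on simulated counts drawn with the spread estimated from these same libraries. Such counts hold no library that stands apart, so the test does not cover that case. Alternatives covered scaling, filters, DESeq2 1.42.0, limma voom with quality weights (3.58.1), equal depth, summed copies, a replicate block and leaving out each library. Named genes were the members, Ifit1bl2, up to 3 called genes of each list by adjusted p, 10 pathway genes whatever their values, and the 6 most alike to the family mean; the other effectors called in the hematogenous model were named after their values were seen. A gene that the rule named is not reported here. The members and lists were chosen with earlier results of these data known.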

Additional observations from a re-analysis of the deposited data

Results flagged for a closer look

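In 3 of 21 sets of 4 libraries, 1 library stood apart from the other 3 by more than the 95% critical value of Dixon's gap to range ratio, which chance gives in about 1 of 20 sets. Ifit2 was highest in tumor free replicate 1, at 64.1 CPM, against 51.5 to 53.6 CPM in the other tumor free libraries. Ifit3 was highest in tumor free replicate 4, at 37.6 CPM, against 10.9 to 15.3 CPM in the others. Ifit3b was highest in lymphatic replicate 3, at 41.4 CPM, against 25.5 to 27.3 CPM in the others.

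The effect against tumor free differed between the models for 4 members, by the fitted difference hematogenous minus lymphatic, in which the tumor free libraries cancel. It was −0.96 for Ifit1bl1 (edgeR adjusted p = 0.0053), −1.004 for Ifit2 (edgeR adjusted p = 0.000525), −1.63 for Ifit3 (edgeR adjusted p = 0.0276) and −2.12 for Ifit3b (edgeR adjusted p = 0.018).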

How the results depend on the processing

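The 15 fold changes (5 members in 3 comparisons) were recomputed under 24 or 25 settings each, 363 in all. None reversed, 327 kept their side of the threshold, 31 lost it and 5 gained it; the cause was not tested. At an adjusted p under 0.01 in place of 0.05, Ifit1 was lost in the lymphatic model (2.62), Ifit2 and Ifit3 in the hematogenous model (0.50 and 1.60), and Ifit3 and Ifit3b between the models (−1.63 and −2.12), leaving 1 member called in the hematogenous model and 2 between the models. With no filter on low counts Ifit1 in the lymphatic model (2.59), Ifit3 in the hematogenous model (1.61) and Ifit3 between the models (−1.59) were lost. A fit of the compared groups alone lost Ifit2 in the hematogenous model (0.49, edgeR adjusted p = 0.0697). Sums of similar copies are features of their own, each holding a copy called alone, and gave no count of members: the sum of Ifit1, Ifit1bl1 and Ifit1bl2 passed in the hematogenous model (1.16) and between the models (−1.21), and that of Ifit3 and Ifit3b in the hematogenous model (1.46). Ifit1 between the models also passed without robust estimation (−1.48) and with voom and quality weights together (−1.26).

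Leaving out 1 library at a time gave log2 fold changes, for Ifit1, Ifit1bl1, Ifit2, Ifit3 and Ifit3b in that order, of 2.41 to 2.80, 2.03 to 2.29, 1.43 to 1.56, 3.02 to 3.72 and 2.50 to 3.13 in the lymphatic model. In the hematogenous model they were 0.78 to 1.47, 1.06 to 1.33, 0.38 to 0.60, 1.22 to 2.13 and 0.14 to 1.05. Between the models they were −1.80 to −1.11, −1.10 to −0.79, −1.09 to −0.86, −1.97 to −1.39 and −2.59 to −1.73.

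Over all genes, 439, 2625 and 1417 were called in the lymphatic, the hematogenous and the between-model comparison. An adjusted p under 0.01 gave 195, 1109 and 477, DESeq2 gave 729 in the lymphatic comparison, and voom with quality weights gave 2913 between the models. Leaving out 1 library gave 255 to 634, 1760 to 3202 and 620 to 1572. The lymphatic count fell to 255 without lymphatic replicate 4, and the between-model count to 620 without lymphatic replicate 2 or hematogenous replicate 3 and to 811 without hematogenous replicate 1.

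With replicate numbers as a block, the replicate block fit called 362, 2518 and 1439 genes and 5, 3 and 4 members. Libraries of the same number correlated at −0.0727 to 0.0589 in their deviations from group means and those of other numbers at −0.101 to 0.153, so the numbers are not shown to pair the libraries. Depth limits Ifit3b most, with 190 reads over the tumor free group.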
